A study of Mus musculus with 4 samples.

Results

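Untreated neural stem/progenitor cells (NSPCs) without p53 were compared with untreated wild-type NSPCs. The 4 samples are the control channels of 4 arrays, 2 from *Trp53*-/- and 2 from wild-type cells, out of 8 labelled samples in the series. The other 4 samples are the same kinds of cells treated with 20 µM of the PARP inhibitor PJ34, which were hybridized to the same arrays in the other dye. The labels give the strain Slc:ICR and embryonic day 13.5 for both genotypes, and the cells were suspended in neurosphere medium with B-27, 20 ng/ml EGF and 20 ng/ml FGF-basic. The *Trp53*-/- cells carry a germline null allele on both chromosomes, from a line of heterozygous mice obtained separately, whose own strain is not given in the sources used here, and the wild-type cells carry none. Which exons the null allele lacks, and how many embryos a culture held, are not given in the sources used here. RNA was prepared independently for each array, so n = 2 arrays per genotype, and the tests measure the spread between these arrays.

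p53, the product of *Trp53*, is a transcription factor that is kept at a low level by the ubiquitin ligase Mdm2 and is stabilized by DNA damage and other stress. It binds a DNA element made of a pair of similar repeats and raises the transcription of genes that stop the cell cycle, repair DNA, trigger apoptosis or adjust metabolism. In neural progenitors it is known as a brake on proliferation and self-renewal. The comparison asks which of these genes, and which others, differ in cells that lack p53 when no drug is present.

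The arrays were alike in quality, but the genotypes differed in more than the *Trp53* allele. Between 21504 and 24535 of 55681 probes were well above background per array, and no spot was saturated. Probes that were well above background on all arrays of 1 genotype or of both were kept, 22413 in number (40.3%), and a gene was read from its brightest kept probe, which gave 17150 genes. The 2 *Trp53*-/- arrays correlated with r = 0.9958 and the 2 wild-type arrays with r = 0.9803, while arrays of different genotypes had r between 0.9663 and 0.9799. The median difference between replicates was 0.28 on the log2 scale for wild-type and 0.12 for *Trp53*-/-. No slide held more than 1 of the arrays, and both wild-type arrays were scanned before both *Trp53*-/- arrays, so scan and genotype cannot be told apart. All 11 NSPC markers checked were well above background on all 4 arrays, *Nes*, *Sox2* and *Fabp7* among them. Markers of neurons (6 of 6), the oligodendrocyte lineage (6 of 6) and astrocytes (3 of 4) were also well above background on all 4. Markers of microglia (4 of 5), endothelium (3 of 4), mesenchyme and meninges (5 of 5) and red blood cells (3 of 3) were not well above background on any array. The exceptions, *Csf1r* of microglia and *Kdr* of endothelium, were so on all 4. In a longer list of mesenchymal and meningeal markers, 5 of 14 were well above background on all 4 arrays.

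The cultures also differed in transcripts of the sex chromosomes. *Eif2s3y*, a Y-linked translation factor gene, had log2 intensities of 8.53 and 8.01 in wild-type and 6.00 and 5.93 in *Trp53*-/- cells, where it was not well above background. *Ddx3y*, a Y-linked RNA helicase gene, had 7.86 and 7.65 against 6.03 and 5.87, again not well above background without p53. These Y-linked transcripts were thus detected in both wild-type and in neither *Trp53*-/- culture, at least 3.83-fold and at least 2.68-fold lower. Of the other Y-linked genes, *Kdm5d* was well above background on no array and *Uty* on 1 wild-type array with 1 of its probes. *Xist*, the RNA that silences an X chromosome, was present on all 4 arrays, with 10.81 and 9.61 in wild-type and 11.23 and 11.56 in *Trp53*-/- cells, a difference of 1.18 that did not pass the test (*q* = 0.0828). All 7 of its probes were higher in *Trp53*-/- cells, by 0.63 to 1.35, and 1 of them was called when probes were tested singly. Sex chromosome content and genotype therefore cannot be told apart in these 4 cultures.

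Of the 17150 genes, 311 were higher and 320 were lower in *Trp53*-/- than in wild-type NSPCs, 1.81% and 1.87% of the genes tested. A gene is called here when limma gave *p* and Storey's *q* (the expected share of false calls) below 0.05 and the difference was more than 2-fold. Differences are given throughout as *Trp53*-/- minus wild-type on the log2 scale, so that 1 is a 2-fold higher and -1 a 2-fold lower level without p53. Their median over all genes was 0.01. At *q* below 0.05 with no limit on the fold, 721 genes (4.2%) were higher and 701 (4.09%) were lower, and at an unadjusted *p* below 0.05 4170 genes differed. The counts depend on the small spread of the *Trp53*-/- arrays. Without *Trp53*-/- replicate 1, limma called 12 genes higher and 10 lower, and without *Trp53*-/- replicate 2 it called 2 and 4. With the median of each array equalized in place of quantile normalization, no gene was called, while 2668 had an unadjusted *p* below 0.05. With the scanner software's processed signal, 35.9% of the called genes were higher, against 49.3% here. Genes whose genotypes did not overlap, with both *Trp53*-/- arrays above or both below both wild-type arrays, made up 28.4% (higher) and 28.8% (lower) of all genes.

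**Figure D1:**
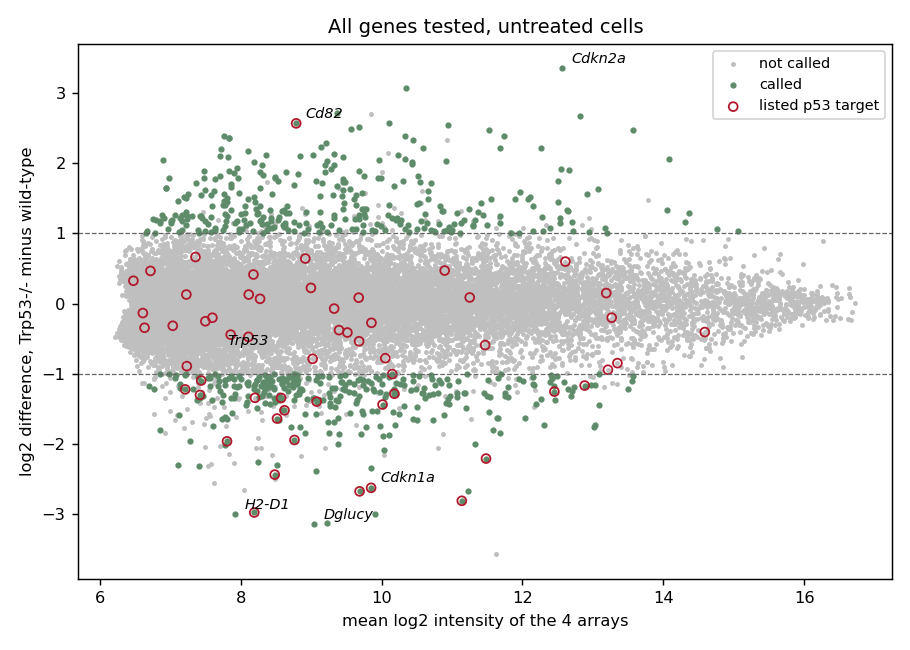
Log2 difference, *Trp53*-/- minus wild-type (vertical axis), against the mean log2 intensity of the 4 arrays (horizontal axis) for the 17150 genes tested, 1 point per gene. Green points are called genes, red circles are the listed p53 targets, and dashed lines mark a 2-fold difference. *Cdkn2a* is the highest point at 3.35, and most red circles past a dashed line lie below -1.

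The single probe of *Trp53* (chromosome 11, 69404204 to 69404263, mm9) had log2 intensities of 7.90 and 8.14 on the wild-type arrays and of 7.25 and 7.47 on the *Trp53*-/- arrays. Both *Trp53*-/- values lay below both wild-type values, and the probe stayed well above background on all 4 arrays. The difference was -0.66 with a standard error of 0.18 and did not pass the test (*q* = 0.0586). Since the deleted exons are not given, the remaining signal neither checks nor contradicts the genotype label.

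The clearest group among the lower genes was that of p53 target genes. Of 62 listed targets, 61 had a probe and 56 were tested, of which 20 were called lower (35.7%) and 1 was called higher. Beside these stand 1.87% and 1.81% of all genes, and 1.04% and 2.29% of the genes with a gene name. The median difference of the tested targets was -0.50, and 41 of the 56 were lower. Genotypes did not overlap for 34 lower and 9 higher targets of the 56, beside 28.8% (lower) and 28.4% (higher) of all genes. All 20 were well above background on all 4 arrays, so none of them entered through wild-type cells alone. In the PJ34 channel of the same arrays, both *Trp53*-/- arrays lay below both wild-type arrays for 20 of 20, and for 26.5% of all genes. The 20 were chosen by their call in the untreated channel, so this is no independent check and 26.5% is not a like share. The paper also reports that PJ34 raised several p53 targets in wild-type cells. The list was written with earlier results of these arrays known.

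Some of these targets carry a close match to the p53 element near their start site, and the stretches of 4 targets called lower are shown, with that of *Rps27l*, which was not called, beside them. The element was searched as a pair of 10-base repeats, each a run of purines, then C, A or T bases, G, and a run of pyrimidines, with the C and the G kept, on both strands (the element reads alike on both), with at most 1 base between the repeats and at most 2 mismatches in all. Of 32851 promoter windows of RefSeq (GRCm38.p6, 250 bases before to 50 after the start), 0.682% held such a match. A window was found for 15 of the 20 targets called lower, and 5 of these targets held a match, as did 1 of 32 other tested targets with a window. Targets were counted by gene, with a match in any window of the gene, so 0.682% of windows is not a like share. The match in *Gtse1* (chromosome 15, 1 mismatch) overlaps the start itself and is not printed. The others are given 5′ to 3′ along the gene, with the match in capitals and 20 bases on each side.
Cdkn1a, chr17:29090908-29090967, plus strand, 1 mismatch: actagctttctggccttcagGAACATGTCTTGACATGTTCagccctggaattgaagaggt
Ccng1, chr11:40755442-40755501, minus strand, 1 mismatch: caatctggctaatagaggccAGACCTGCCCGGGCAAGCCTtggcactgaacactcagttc
Bax, chr7:45467059-45467119, minus strand, 2 mismatches: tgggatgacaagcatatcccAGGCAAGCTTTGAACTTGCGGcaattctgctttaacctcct
Ckap2, chr8:22185983-22186042, minus strand, 2 mismatches: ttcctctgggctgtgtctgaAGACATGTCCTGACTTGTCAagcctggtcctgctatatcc
Rps27l, chr9:66946276-66946335, plus strand, 1 mismatch: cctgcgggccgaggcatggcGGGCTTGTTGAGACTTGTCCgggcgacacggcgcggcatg
The middle of the match lies 41 bases before the start in *Cdkn1a*, 185 in *Ccng1*, 191 in *Bax* and 193 in *Ckap2*. *Rps27l*, a ribosomal protein gene, was not called, with a difference of -0.40 (*q* = 0.125). A match is a description of letters and was not tested as a binding site.

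Among targets that act on the cell cycle and DNA repair, 6 of 18 tested genes were called lower and 0 were called higher, with a median of -0.61. *Cdkn1a* encodes p21, the inhibitor of cyclin-dependent kinases through which p53 stops the cycle. It had log2 intensities of 10.83 and 11.50 in wild-type and 8.50 and 8.58 in *Trp53*-/- cells. The genotypes stood far apart, with a difference of -2.62 ± 0.25 (SE), that is 6.16-fold lower (*q* = 0.0114). Its probe (chromosome 17, 29237377 to 29237436, mm9) is printed in 10 spots. A second kept probe of the gene had 7.79 and 7.90 in wild-type and was not well above background in *Trp53*-/- cells (5.97 and 5.99). *Ccng1* encodes cyclin G1, which takes part in the negative feedback on p53. It had 10.95 and 11.10 against 8.29 and 8.42, a difference of -2.67 ± 0.16 (*q* = 0.00714). *Psrc1*, a microtubule regulator, had 9.45 and 10.02 against 7.78 and 7.81 (-1.94, *q* = 0.0161). The microtubule-associated genes *Ckap2* and *Gtse1* were lower by smaller amounts, with -1.44 and -1.39, as was the stress-induced sestrin gene *Sesn2* (10.71 and 10.60 against 9.69 and 9.61). *Sesn2* lay at the 2-fold limit and was not called without wild-type replicate 1 (-0.95). *Mgmt*, which removes alkyl groups from guanine, had 8.33 and 9.42 against 7.51 and 7.56 and was not called (-1.34, *q* = 0.0554), its wild-type arrays lying nearly as far apart as the genotypes. *Aen*, a nuclease gene, passed *q* but not the 2-fold limit (-0.85, *q* = 0.029). *Gadd45a*, *Sesn1*, *Ddb2* and *Xpc* lay between -0.25 and 0.47 and did not pass.

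Targets that lead to cell death showed the lowest median of the 3 groups, -1.02, with 9 of 18 tested genes called lower and 1 called higher. *Phlda3*, a repressor of the kinase Akt, had 12.38 and 12.70 in wild-type and 9.64 and 9.83 in *Trp53*-/- cells, a difference of -2.81 ± 0.19 (*q* = 0.00714). *Trp53inp1*, which promotes the killing activity of p53, had 9.70 on both wild-type arrays and 7.19 and 7.34 without p53 (-2.43, *q* = 0.00714). *Tnfrsf10b*, which encodes a receptor for the death ligand TRAIL, had 8.88 and 8.70 against 6.89 and 6.77 (-1.96, *q* = 0.0111). In these 3 genes the gap between the genotypes was far wider than that between replicates.
The BH3-only genes *Bbc3* (PUMA) and *Pmaip1* (Noxa), whose products bind the guardians of the mitochondrion, had -1.64 ± 0.18 and -1.09 ± 0.19. *Bax*, which opens the outer mitochondrial membrane, had 12.92 and 13.23 against 11.83 and 11.82 (-1.25, *q* = 0.0206). *Fas*, a death receptor, had 7.70 and 7.95 against 6.59 and 6.61 (-1.22, *q* = 0.0202). *Pidd1*, an adaptor of caspase-2, and *Zmat3*, an RNA-binding protein gene, had -1.52 and -1.28. *Zmat3* was not called without wild-type replicate 1. Both kept probes of *Pidd1* were called, the dimmer one with -1.02. *Perp*, a membrane protein of the apoptotic response, had 7.25 and 8.12 against 6.74 and 6.85 and was not called (-0.89, *q* = 0.0831). *Cd82*, a tetraspanin known as a metastasis suppressor, went the other way, with 7.05 and 7.96 in wild-type and 9.94 and 10.20 in *Trp53*-/- cells (2.57 ± 0.32, *q* = 0.0172).

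Of the targets in metabolism and other roles, 5 of 20 tested genes were called lower and 0 higher, with a median of -0.29. *Dcxr*, a reductase of sugars and carbonyls, had 9.18 and 10.18 in wild-type and 6.62 and 6.79 in *Trp53*-/- cells, the largest difference of all listed targets at -2.97 ± 0.33 (*q* = 0.0151). *Ak1*, an adenylate kinase, had 12.51 and 12.67 against 10.34 and 10.42 (-2.21, *q* = 0.00885). The thiamine transporter gene *Slc19a2* had -1.34, *Svop*, which encodes a vesicle protein, -1.30, and the epoxide hydrolase gene *Ephx1* -1.17. *Svop* was not called without wild-type replicate 2 (-0.90). *Tigar*, *Gpx1* and *Sulf2* lay between -0.20 and 0.09 and did not pass. *Gdf15*, a secreted stress factor outside the lists, had 7.76 and 8.08 in wild-type and did not stand well above background in *Trp53*-/- cells, at least 2.88-fold lower (*q* = 0.0164). It is named here after its values were seen.

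**Figure D2:**
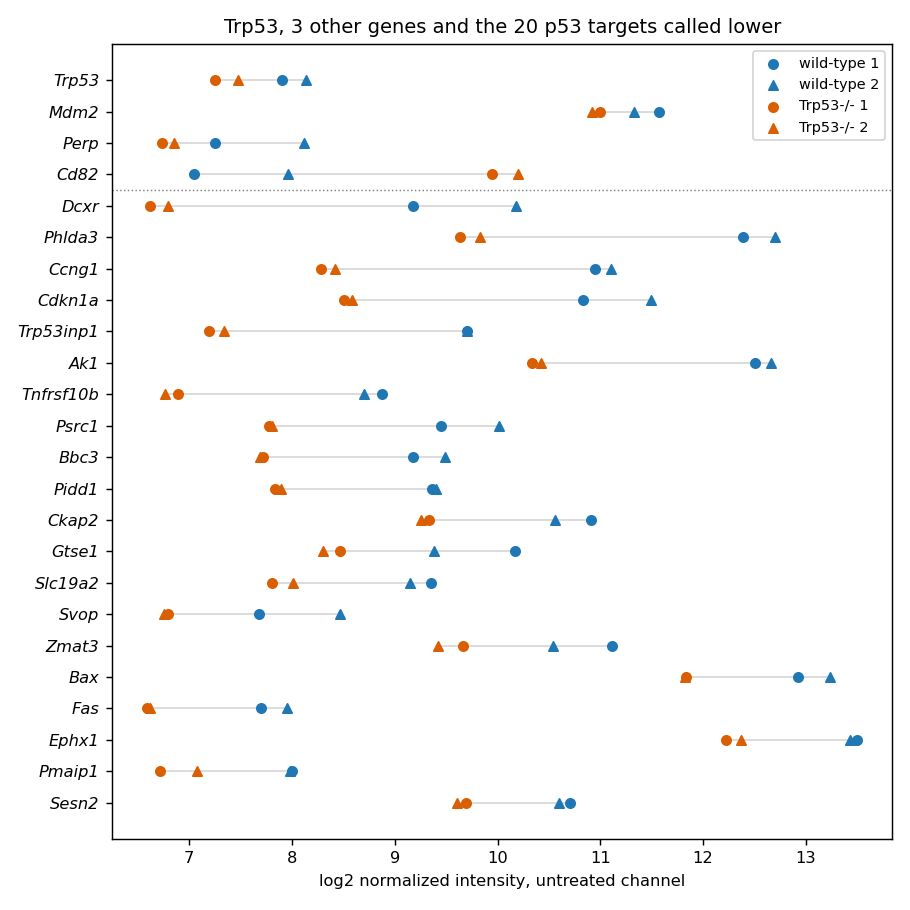
Log2 normalized intensity in the untreated channel (horizontal axis) on the 2 wild-type arrays (blue) and the 2 *Trp53*-/- arrays (orange) for *Trp53*, *Mdm2*, *Perp* and *Cd82* (above the dotted line) and for the 20 p53 targets called lower, ordered by their difference. In each of the 20 rows both orange points lie left of both blue points, from *Dcxr* (-2.97) to *Sesn2* at the 2-fold limit; *Cd82* has the opposite order, and different genes are read by different probes, so their levels are not compared.

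Among the genes that control p53 itself, 1 was called. Of 15 tested members of the p53 family and its regulators, 0 were called lower and 1 was called higher, and their median was -0.09 (0.02 without wild-type replicate 1). *Mdm2*, at once a target and the main inhibitor of p53, had 11.58 and 11.33 in wild-type and 11.00 and 10.92 in *Trp53*-/- cells, a difference of -0.49 that did not pass (*q* = 0.0874). *Mdm4* had 0.16, *Ppm1d* 0.06, *Trp63* -0.36 and *Trp73* -0.51, and none of them passed. The called gene was *Cdkn2a*, the locus of p16Ink4a and p19Arf, of which the second inhibits Mdm2. It had 10.66 and 11.11 in wild-type and 14.13 and 14.34 in *Trp53*-/- cells, the largest increase among all named genes at 3.35 ± 0.21, or 10.2-fold (*q* = 0.00714). Its other probe had 6.97 and 7.07 against 10.01 and 10.49. Both probes lie in the part that its transcript variants share, so p16Ink4a and p19Arf cannot be told apart.

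Of the 7 tested CDK inhibitors outside *Cdkn1a*, 3 were called higher and 0 lower, against 1.81% and 1.87% of all genes. Beside *Cdkn2a*, these were its neighbour *Cdkn2b* (p15Ink4b), with 9.40 and 9.58 against 11.67 and 11.73 (2.21 ± 0.16, *q* = 0.00885), and *Cdkn1c* (p57), with 7.19 and 7.91 against 8.66 and 9.13 (1.35 ± 0.29, *q* = 0.0393). *Cdkn1c* was not called without wild-type replicate 1 (0.99). *Cdkn1b* (p27) had -0.35 and the others lay between -0.10 and 0.22, and none of these passed.

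Genes of proliferation did not pass the test one by one. Of 24 tested S phase genes, 0 were called by limma in either direction, and 1, *Gins1* of the replicative helicase (-0.70, *q* = 0.0417), passed *q*. All 24 had a negative difference, with a median of -0.43, and genotypes did not overlap for 20 of them, beside 28.8% of all genes. *Rrm2*, a subunit of ribonucleotide reductase, had the largest difference with 14.33 and 13.79 against 13.12 and 13.32 (-0.84, *q* = 0.0585). *Pcna*, the sliding clamp of the replication fork, had 14.69 and 14.10 against 13.95 and 13.77 (-0.53), and *Mcm2* of the helicase had -0.53. Of 29 tested genes of the G2 and M phases, 0 were called and 0 passed *q*, with a median of -0.22 and 23 negative differences. *Mki67* had -0.32 and *Cdk1* -0.63. The medians stayed negative under every scaling run, between -0.51 and -0.25 for the S phase and between -0.39 and -0.01 for G2 and M over all alternatives.

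**Figure D3:**
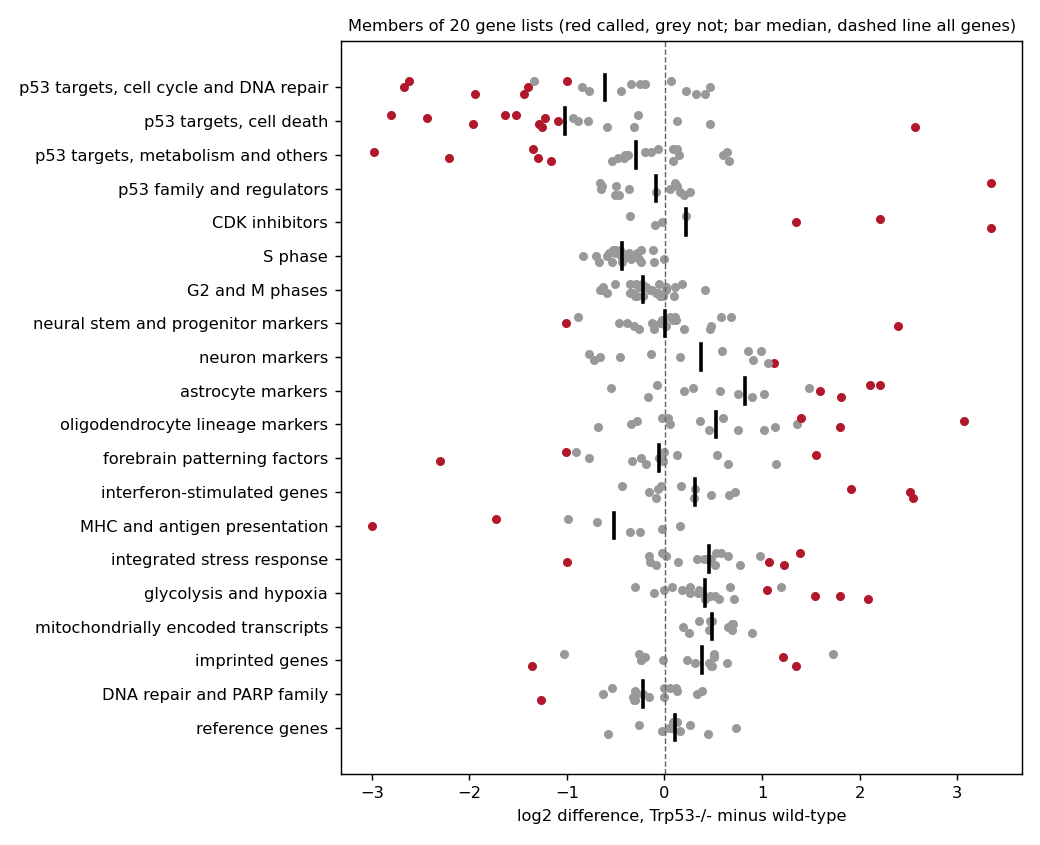
Log2 difference, *Trp53*-/- minus wild-type (horizontal axis), of each tested member of 20 gene lists (vertical axis), red where called and grey where not; vertical jitter has no meaning. Black bars are list medians and the dashed line is the median of all genes; the 3 lists of p53 targets hold 20 red points left of -1, and the S phase genes form a grey band left of 0 with a median of -0.43.

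Outside the p53 pathway, some markers of glia were called higher without p53. Of 14 tested astrocyte markers, 4 were called higher and 0 lower, beside 1.81% and 1.87% of all genes. Among genes with a gene name these shares were 2.29% and 1.04%. The median of the 14 markers was 0.83. *Gfap*, the intermediate filament of astrocytes, had 6.34 and 6.98 in wild-type, where 1 array was well above background, and 8.77 and 8.76 in *Trp53*-/- cells (2.11 ± 0.24, *q* = 0.016). *S100b*, a calcium-binding protein gene of glia, had 7.51 and 7.66 against 9.27 and 9.51 (1.81, *q* = 0.0114). *Apoe*, a lipid carrier gene, had 10.32 and 11.99 against 13.39 and 13.35 (2.21 ± 0.51, *q* = 0.0437). Its wild-type arrays lay far apart, but both were below both *Trp53*-/- arrays. *Apoe* was not called with Benjamini-Hochberg adjustment. The chaperone gene *Clu* had 1.59, while the water channel gene *Aqp4* (0.57, *q* = 0.058) did not pass. The other direction was seen in 3 markers, none of which passed, with *Aldh1l1*, a folate enzyme gene, at -0.55 (*q* = 0.277). The summed linear intensity of the 14 markers was 40564 to 46285 in wild-type and 72066 to 76542 in *Trp53*-/- cells. Such a sum is set mostly by the brightest probes and does not stand for each marker.

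Of 16 tested markers of the oligodendrocyte lineage, 3 were called higher and 0 lower, beside 1.81% and 1.87% of all genes. The median of the 16 markers was 0.53. *Mbp*, a myelin protein gene, had 6.52 and 6.64 in wild-type and 8.40 and 8.35 in *Trp53*-/- cells (1.80, *q* = 0.0111). *Mag*, a myelin-associated glycoprotein gene, had 6.59 and 7.55 against 8.53 and 8.42 (1.40, *q* = 0.0426). *Mag* was not called without wild-type replicate 1 (0.93), and the mean of the kept probes of *Mbp* was not called either (1.00). The progenitor gene *Pdgfra* had -0.69 (*q* = 0.0484), within the 2-fold limit, and *Sox10* did not pass. The summed linear intensity of the 16 markers, again set mostly by the brightest probes, was 31468 to 31538 in wild-type and 35756 to 40178 in *Trp53*-/- cells. The part of a different mix of cells in the other results was not tested. Bulk RNA does not tell more cells of a type from more RNA per cell.

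Progenitor markers differed in both directions. Of 22 tested, 1 was called higher and 1 lower, and 11 had positive and 11 negative differences, with a median of 0.00 whose sign turned under cyclic loess and without wild-type replicate 2. *Fgfr3*, a receptor of the FGF in the medium, had 10.50 and 10.59 in wild-type and 12.93 and 12.95 in *Trp53*-/- cells (2.39 ± 0.15, *q* = 0.00714). *Lhx2*, a forebrain transcription factor gene, had 10.72 and 10.33 against 9.35 and 9.68 (-1.01, *q* = 0.0373) and was not called without wild-type replicate 1 (-0.81). *Nes*, *Sox2* and *Pax6* had 0.69, -0.11 and 0.58 and did not pass. Among 12 tested neuron markers 1 was called, *Rbfox3* (NeuN), which was higher by 1.13. The 12 went both ways, with 7 positive and 5 negative differences, and 4 higher and 2 lower markers passed *q*. *Syp* had 10.05 and 10.24 in wild-type against 9.52 and 9.23, and *Snap25* had 11.18 and 11.16 against 10.55 and 10.35. Of 8 proneural and neuroblast genes 1 was called, *Elavl3* with 1.05, which was not called without wild-type replicate 1 (0.84).

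Patterning factors changed in single genes. Of 15 tested forebrain factors, 2 were called lower and 1 higher, with a median of -0.06 whose sign turned with median scaling and without wild-type replicate 1. *Sp8*, a zinc finger gene of the dorsal lateral ganglionic eminence, had 8.78 and 8.33 in wild-type and did not stand well above background in *Trp53*-/- cells (6.13 and 6.37), at least 4.54-fold lower (*q* = 0.0114). In the PJ34 channel of *Trp53*-/- replicate 2 it had 8.14, and in that of replicate 1 6.49. The channels of replicate 2 also differed in *Eif2s3y* (5.93 untreated, 10.78 with PJ34) and *Xist* (11.56 and 7.33). The value of 8.14 is therefore not read as an effect of PJ34. *Nr2f2* (COUP-TFII) had 6.91 and 6.41 against 8.31 and 8.12 (1.55, *q* = 0.0204). *Zic1*, which is outside the lists and was named after its values were seen, had 10.67 and 10.66 against 8.94 and 8.87 (-1.76, *q* = 0.0111). Of 25 genes of the midbrain, hindbrain and ventral brain 11 were tested and 0 were called, 1 of which passed *q*. Of 26 *Hox* genes 1 was tested, and it was not called. In the signalling lists limma called 0 of 17 Notch and 0 of 9 hedgehog genes, none of which passed *q*. *Dhh*, a hedgehog ligand gene outside that list and named after its values were seen, was called higher, with 7.97 and 8.09 against 10.24 and 10.27 (2.23). Of 16 Wnt genes 1 was called (*Wnt7b*, 1.74), and of 15 BMP and TGF-beta genes 1 (*Tgfb2*, 8.18 and 8.25 against 10.12 and 10.37, 2.03). *Wnt7b* was not called with the scanner software's processed signal. The Wnt ligand gene *Wnt10a*, also outside its list and named after its values were seen, was called higher, with 5.78 and 5.98 in wild-type cells, where it was not well above background, and 8.04 and 7.80 in *Trp53*-/- cells, at least 2.96-fold higher.

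**Figure D4:**
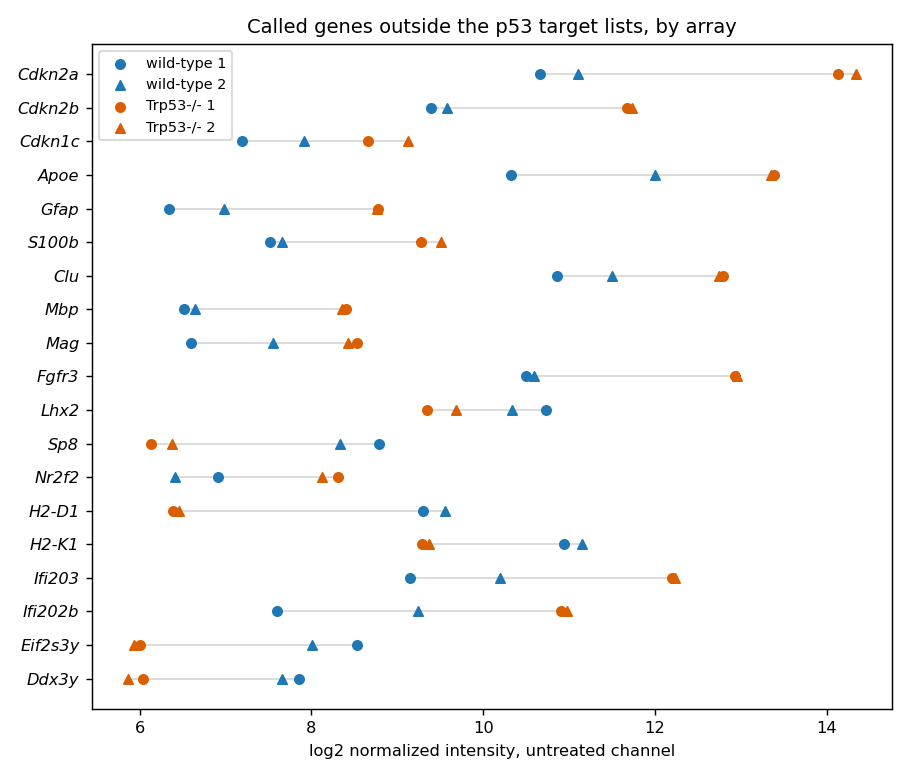
Log2 normalized intensity in the untreated channel (horizontal axis) on the wild-type arrays (blue) and the *Trp53*-/- arrays (orange) for called genes outside the p53 target lists: CDK inhibitors, glial markers, *Fgfr3*, forebrain factors, MHC class I genes, the p200 family and Y-linked genes. Blue and orange points do not overlap in any row, and *Apoe* and *Ifi202b* show the wide gap between the 2 wild-type arrays.

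Genes of immunity differed by locus. Of 14 tested interferon-stimulated genes, 3 were called higher and 0 lower, and these 3 were all of the p200 family of interferon-inducible DNA sensors on chromosome 1. *Ifi203* had 9.14 and 10.20 in wild-type and 12.20 and 12.24 in *Trp53*-/- cells (2.55, *q* = 0.0192). *Ifi202b* had 7.60 and 9.24 against 10.90 and 10.98 (2.52 ± 0.50, *q* = 0.0336), and *Ifi204* had 1.92. In the PJ34 channel *Ifi202b* had 7.24 and 10.10 in wild-type and 10.14 and 10.52 in *Trp53*-/- cells. Within 500 kb of the *Ifi202b* probe, 8 of 14 tested genes and transcripts were called higher and 0 lower, beside 1.81% and 1.87% of all genes. Unnamed transcripts of the same locus are among the 8, so these are not 8 separate genes. Members of this family are alike in sequence, so that a probe may bind more than 1 of them. Interferon-stimulated genes elsewhere, such as *Stat2* (0.32) and *Bst2* (-0.44), did not pass. Of 8 tested genes of the major histocompatibility complex (MHC) and antigen presentation, 2 were called lower, both of class I. *H2-D1* had 9.30 and 9.55 in wild-type and 6.39 and 6.46 in *Trp53*-/- cells, where 1 of 2 arrays was well above background (-3.00 ± 0.17, *q* = 0.00714). In the PJ34 channel it had 10.60 and 10.79 against 7.03 and 8.89. The last value is of *Trp53*-/- replicate 2, whose channels also differed in *Eif2s3y* and *Xist*, and is not read as an effect of PJ34. *H2-K1* had 10.95 and 11.15 against 9.28 and 9.36 (-1.73, *q* = 0.0114). *B2m*, whose product pairs with class I chains, had -0.03. The labels give the same strain for both genotypes, and whether the alleles at these loci differ was not tested.

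Stress and metabolism genes were higher in part. The counts below stand beside 1.81% of all genes called higher and 1.87% called lower. Of 20 tested genes of the integrated stress response, 3 were called higher (*Trib3* with 1.39, *Atf5* with 1.23 and *Chac1* with 1.08) and *Sesn2* lower, with a median of 0.46. *Chac1* was not called without wild-type replicate 1 (0.95). Of 21 tested genes of glycolysis and hypoxia, 4 were called higher and 0 lower, with a median of 0.41. They were the lactate exporter gene *Slc16a3* (6.85 and 6.71 against 8.83 and 8.91, 2.09), the growth factor gene *Vegfa* (1.54), the kinase gene *Pdk1* (1.06) and *Ndrg1*, which was not well above background in wild-type cells and at least 2.89-fold higher without p53. Of 11 mitochondrially encoded transcripts, 11 had a positive difference with a median of 0.49, 3 passed *q* and 0 were called. Of 23 cholesterol synthesis genes, 0 were called and 0 passed *q*. Among 22 immediate early and growth factor response genes, *Jun* (12.02 and 12.51 against 13.89 on both *Trp53*-/- arrays, 1.63) and *Egr2* (1.06) were called higher. *Egr2* was not called without wild-type replicate 2 (0.96). Of 17 DNA repair and PARP family genes, 1 was called, *Ogg1*, a glycosylase for oxidized guanine, with 9.49 and 9.43 against 8.18 and 8.21 (-1.26, *q* = 0.017). *Parp1* had 0.06 and *Parp2* -0.63, and neither passed. Of 18 tested imprinted genes, *Cdkn1c* and *Peg3* (1.22) were called higher and *Kcnq1ot1* (-1.35) lower. *Peg3* was not called without wild-type replicate 2 (0.94), and for *Kcnq1ot1* the mean of its kept probes was not (-0.91). None of 12 reference genes was called or passed *q* in limma, *Actb* (0.13) and *Gapdh* (0.08) included.

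Among all named genes, the largest increases beside that of *Cdkn2a* included those of *Mgll*, a lipase of endocannabinoids (2.72), the LIM protein gene *Pdlim4* (2.67) and *Scrg1* (2.58). *Cd82*, *Ifi203* and *Ifi202b* were also among the 15 largest. *Vgf*, a neuropeptide precursor gene, had 2.48 with wild-type arrays at 7.31 and 9.35, and it lost its call in 9 alternatives. The protein kinase A subunit gene *Prkacb* (12.24 and 12.42 against 14.83 and 14.78), *Cd93* (2.47), *Cavin4* (2.38), the VEGF receptor gene *Flt1* (2.36), *Cdc42ep3* (2.36) and *Fgfr3* were among them too. *Kdr*, another VEGF receptor gene, was lower, with 12.56 and 12.37 against 11.23 and 11.04 (-1.32, *q* = 0.018). The largest decrease was that of *Dglucy*, a D-glutamate cyclase, with 10.56 and 10.67 in wild-type and 7.53 and 7.42 in *Trp53*-/- cells (-3.14 ± 0.16, *q* = 0.00714), followed by *H2-D1* and *Gm9372*. *Gm9372* had -3.00 with wild-type arrays at 12.59 and 10.24 and was not called with Benjamini-Hochberg adjustment. Of the 15 largest decreases 6 were listed p53 targets (*Dcxr*, *Phlda3*, *Ccng1*, *Cdkn1a*, *Trp53inp1* and *Ak1*). The others were *Sp8*, *Eif2s3y*, *1700028I16Rik* (-2.09), *Ddit4l*, an inhibitor of mTOR signalling (-2.01), *Slc27a3*, a fatty acid transport protein gene (10.40 and 10.37 against 8.39 and 8.37), and *Fxyd1*, a regulator of the sodium pump (-1.99). The actin-binding gene *Tagln* was lower as well (10.86 and 11.22 against 9.29 and 9.07, -1.86), while *Acta2* was not called (-2.15, *q* = 0.0613).

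Called genes were spread over the chromosomes, also around *Trp53*. Within 5 Mb of the *Trp53* probe, 10 of 147 tested genes were called (6.80%), 6 higher and 4 lower, against 3.65% of all other genes and 3.68% of all genes. The nearest was *Atp1b2*, a subunit gene of the sodium pump, whose probe lies 9.05 kb away. It had 11.70 and 11.22 in wild-type and 12.98 and 12.72 in *Trp53*-/- cells (1.40, *q* = 0.0238). The others within 1 Mb were *Tnfsf12* (-1.14), an unnamed transcript (1.19), *2810408A11Rik* (-1.16), *Ctdnep1* (1.01) and *Pld2* (1.20), and farther out *Mink1* (1.49), *Nlrp1a* (-1.06), *Myh8* (-1.40) and *Shisa6* (1.39). *Ctdnep1* and *Nlrp1a* were not called without wild-type replicate 1, with 0.79 and -0.81. Both directions occurred in the window. Without either *Trp53*-/- array 0 of these genes was called. A null allele keeps linked DNA of the cells in which it was made, and the part of such DNA in these values was not tested.

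**Figure D5:**
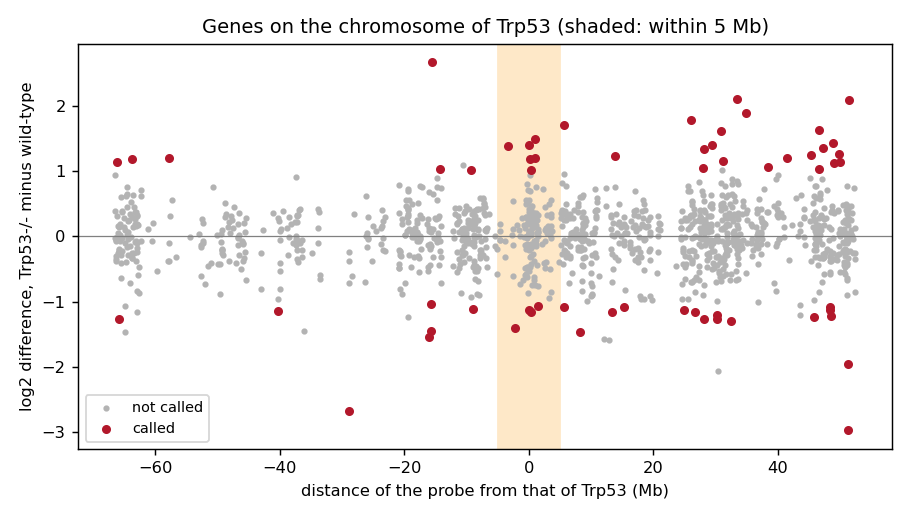
Log2 difference, *Trp53*-/- minus wild-type (vertical axis), of the genes tested on the chromosome of *Trp53* against the distance of their probe from that of *Trp53* in Mb (horizontal axis); red points are called genes. The shaded window of 5 Mb on each side holds 10 red points, 6 above and 4 below 0, and red points also occur far from it.

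Named genes and probes with no gene name differed in direction. Of 12554 genes with a gene name from RefSeq or from the array files, 287 were called higher and 130 lower. Of 4596 without one, 24 were called higher and 190 lower. The median difference was 0.06 for the first and -0.20 for the second. Where a called gene had several kept probes, all of them had the same sign for 141 of 160 genes.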

How the data were processed

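The authors hybridized untreated (Cy3) and PJ34-treated (Cy5) RNA to Agilent SurePrint G3 Mouse GE arrays and read the spots with Feature Extraction 10.7.3.1. Of the scanner files that the authors deposited, the raw intensity of each Cy3 spot (mean signal) and of its local background (median) were used. A normalized table with 4 columns was not used here, since no array could be matched to its columns by name.

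Background was corrected with limma 3.58.1 (R 4.3.3) by normexp (offset 50), using every spot for the fit. The 4 Cy3 channels were quantile normalized, control spots and 118 to 141 outlier spots per array were left out, and spots of a probe were averaged. Positions are those of the files (mm9). RefSeq (GRCm38.p6) named 27316 of 55681 probes (49.1%). limma's lmFit and eBayes compared the genotypes over all 17150 genes without covariates, with 2 residual degrees of freedom and 5.85 after moderation. Genes were called at *p* below 0.05, *q* (Storey) below 0.05 and a difference over 2-fold. The fit was also run on simulated data with the same spread for all genes and both genotypes. It therefore does not show how the fit behaves with the unequal spread of these arrays. Where a genotype has a gene above background on no array, its fold is a lower limit, taken against the higher of its own signal and the lowest signal well above background of each array.

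Genes were named by a rule: *Trp53*, the 15 largest called increases and decreases, called members of lists with up to 4 others by *p*, called genes within 5 Mb of *Trp53*, and 7 genes of p53 biology. A gene that the rule names is not reported here. The comparison and its lists were chosen with earlier results of these data known. The arrays give a brightness and no count, and their number limits the precision. Slide and scan differed between all arrays, which left no block to fit. Alternatives were other background corrections, scalings, filters, ways to read a gene, adjustments and fits, and leaving out each array.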

Additional observations from a re-analysis of the deposited data

Results flagged for a closer look

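Outside the untreated channel, Y-linked transcripts appeared on 1 *Trp53*-/- array. In the PJ34 channel of *Trp53*-/- replicate 2, *Eif2s3y* had a log2 intensity of 10.78 and *Ddx3y* of 9.54, while in the untreated channel of the same array they had 5.93 and 5.87 and were not well above background. These values were singled out because they are a signal in data that the comparison of untreated cells does not use. In the PJ34 channel of *Trp53*-/- replicate 1 the same genes had 5.82 and 5.85. *Xist*, read from its brightest probe, had 11.56 in the untreated and 7.33 in the PJ34 channel of replicate 2. *Sp8* had 6.37 and 8.14 and *H2-D1* 6.46 and 8.89 in the untreated and the PJ34 channel of that replicate. The untreated values of both *Trp53*-/- arrays of *Eif2s3y*, *Ddx3y* and *Xist* lay close together, and groups of 2 arrays are too small for a search for outlying arrays.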

How the results depend on the processing

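All 87 named genes kept their direction under all alternatives in which they had a value. Most of them were named because they were called, and no called gene had overlapping genotypes, so a change of direction was unlikely from the outset. With median scaling 85 of the 87 lost their call, and the other 2, *Mdm2* and *Perp*, had no call to lose. The counts of genes called higher and lower (311 and 320) became 479 and 557 with an offset of 16, and 665 and 1186 with the scanner software's processed signal. They were 0 and 0 with median scaling (median of all genes 0.12), and 0 and 0 with limma's treat, which tests against 2-fold (218 genes at an unadjusted *p* below 0.05). With Benjamini-Hochberg adjustment 176 genes were lower and 233 higher. Of the 87 named genes 18 lost their call there, *Apoe*, *Ifi202b*, *Scrg1*, *Gtse1*, *Fxyd1* and *Myh8* among them. Leaving out 1 array gave between 2 and 569 higher and between 4 and 722 lower genes. Here the lone array of a genotype is assumed to vary like the pair of the other. The 20 p53 targets called lower became 0 with median scaling and 0 under treat, with 23 and 12 targets lower at an unadjusted *p* below 0.05, ranged from 2 to 22 when 1 array was left out, and lay between 17 and 22 otherwise. The 10 genes called within 5 Mb of *Trp53* were 21 with the processed signal, 0 with median scaling, 0 under treat and between 0 and 14 when 1 array was left out. The difference of *Trp53* lay between -1.01 and -0.54 and was called under none.

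With the replicate number as a block the counts were 367 higher and 465 lower, with 21 p53 targets lower and 10 genes near *Trp53* called. The labels number the replicates, but the differences between replicates 1 and 2 correlated across genotypes with r = 0.068 over the kept probes, so the numbers are not taken to pair the arrays. The limits are those of 2 arrays per genotype, with genotype, scan time and sex chromosome content varying together. Signals near background are compressed by the offset, and levels below it have only a bound.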
